A study of Mus musculus with 8 samples.

Results

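The heat shock proteins and their co-chaperones were examined in the renal cortex of aged and young mice. Members were the genes of the count table whose symbols begin with Hsp, Dnaja, Dnajb or Dnajc followed by the family number or letter, together with Bag1 to Bag6 and Hsf1 to Hsf4, without Hspg2, a matrix proteoglycan. This rule gave 84 of the 22609 genes, and it used no measured value. A member's change is given if it had at least 10 counts in 4 or more libraries, which 74 of the 84 did. The other 10 were Dnajb3, Dnajb7, Dnajb8, Dnajb13, Dnajc5b, Dnajc5g, Hsf3, Hspa1l, Hspb3 and Hspb9, and Dnajb8 and Dnajc5g had 0 counts in all 8 libraries. All mice were untreated C57BL6 males, with 4 labelled 30 months old (aged) and 4 labelled 5 months old (young), and the tissue of each mouse gave 1 library. For the aged mice that were sequenced, the paper's methods state a somewhat higher mean age than the labels do. Total RNA was depleted of ribosomal RNA and sequenced as paired ends. The study compared the groups to find genes whose expression differs with age.

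Heat shock proteins are molecular chaperones that bind unfolded or partly folded proteins, and several are made in larger amounts when proteins are damaged. HSP70 proteins bind and release clients as they cleave ATP, J-proteins (DNAJA, DNAJB and DNAJC) deliver clients and start ATP cleavage, and nucleotide exchange factors, among them the BAG proteins and the HSP110-type proteins, let the client go. HSP90 proteins act later, on kinases, steroid receptors and other nearly folded clients, the chaperonin of Hspd1 and Hspe1 folds proteins in mitochondria, small heat shock proteins hold unfolded proteins without ATP, and the HSF transcription factors switch on the inducible genes. In the renal cortex most of the mass is proximal tubule, whose cells are rich in mitochondria and in endocytic traffic.

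Gene counts summed to between 14820804 and 19018543 per aged library and to between 15152597 and 19821429 per young library. Values are counts scaled to the library total (CPM) after TMM normalization in edgeR, and at these depths 3 counts, taken as the limit of detection, corresponded to between 0.147 and 0.204 CPM, for counting error only. A member is said to have passed the test where edgeR's quasi-likelihood test gave a Benjamini-Hochberg adjusted p below 0.05 over the 13944 genes tested, and SE stands for the standard error of the fitted log2 fold change. Defining proximal tubule markers were abundant in all 8 libraries, with Slc34a1, the sodium-phosphate cotransporter of that segment, at 2481 to 6427 CPM in aged and 5429 to 7216 CPM in young mice. Aged mouse 1 stood apart. The summed level of the 7 proximal tubule markers was 9081 CPM in it, while the aged group reached 22724 CPM and the young group ran from 19979 to 23755 CPM, and 5 of the 7 had lower fitted levels in aged mice with 0 passing the test. Pairs placed on no gene made up 29.9% of the library of aged mouse 1, 29.0% of that of aged mouse 4, between 22.6% and 24.8% of those of aged mice 2 and 3, and between 19.95% and 25.1% of the young libraries.

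In the aged cortex the HSP90 genes, the genes of the mitochondrial chaperonin and the DNAJA group of J-proteins had only negative log2 fold changes (aged minus young), here and in each of 18 other fits. These groups are named because all their tested genes, 3, 2 and 4 in number, were negative, as were 45.9% of all genes. The 18 fits reuse the same libraries, so a sign that repeats across them is not independent evidence. Of the 74 members 3 passed the test, all lower in aged mice, namely Hsp90aa1 and Hsp90ab1, the inducible and the constitutive HSP90 of the cytosol, and Hspa4l, a nucleotide exchange factor of HSP70. In whole cortex, fewer cells of a type and less RNA per cell cannot be told apart. No member passed as higher, by edgeR, DESeq2 or limma-voom. The 3 members were 4.05% of the 74, beside 2.95% of all genes tested that passed in either direction and 1.44% that passed as lower. With a fold change above 1.5 asked as well, the same 3 members passed, beside 2.06% of all genes. At an unadjusted p below 0.05, 20 members were lower, 27.0% of the 74 beside 12.1% of all genes, and 5 were higher, 6.76% beside 13.4% of all genes.

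In 19 members every aged mouse lay below every young mouse, which is 25.7% of the 74 beside 10% of all genes. In 2 members, Bag4 and Dnajc7, all aged mice were above all young mice, by a narrow margin in both, which is 2.70% beside 8.85% of all genes. Without aged mouse 1 these counts were 19 lower and 3 higher, beside 12.5% and 11.4% of all genes. The median log2 fold change of the members was -0.06, and that of all genes was 0.029. With scaling to library size alone the median of all genes moved by 0.11, and the members' median turned to 0.047, which was -0.092 relative to that of all genes. Of the members 44 (59.5%) had a negative log2 fold change, as had 45.9% of all genes.

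The number of members that passed depended on single mice. Without aged mouse 1 there were 6, 8.11% beside 5.83% of all genes (Dnajb11, Hsp90aa1, Hsp90ab1, Hspa4l, Hspd1 and Hspe1), without aged mouse 3 there were 3, 4.05% beside 0.907% (Hsp90aa1, Hspa4l and Hsph1), and without aged mouse 4 there were 5, 6.76% beside 7.83% (Dnaja4, Hsp90aa1, Hsp90ab1, Hspa4l and Hspd1). Without aged mouse 2 or any single young mouse the number was 0, and the genes that passed among all genes then fell from 411 to 150 without aged mouse 2 and to between 8 and 35 without a young mouse. DESeq2 on the same 13944 genes called 11 members, 14.9% beside 12.1% of all genes, and limma-voom called 8, 10.8% beside 6.44%, all of them lower. In every fit tried, the members that passed were lower in aged mice.

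**Figure D1:**
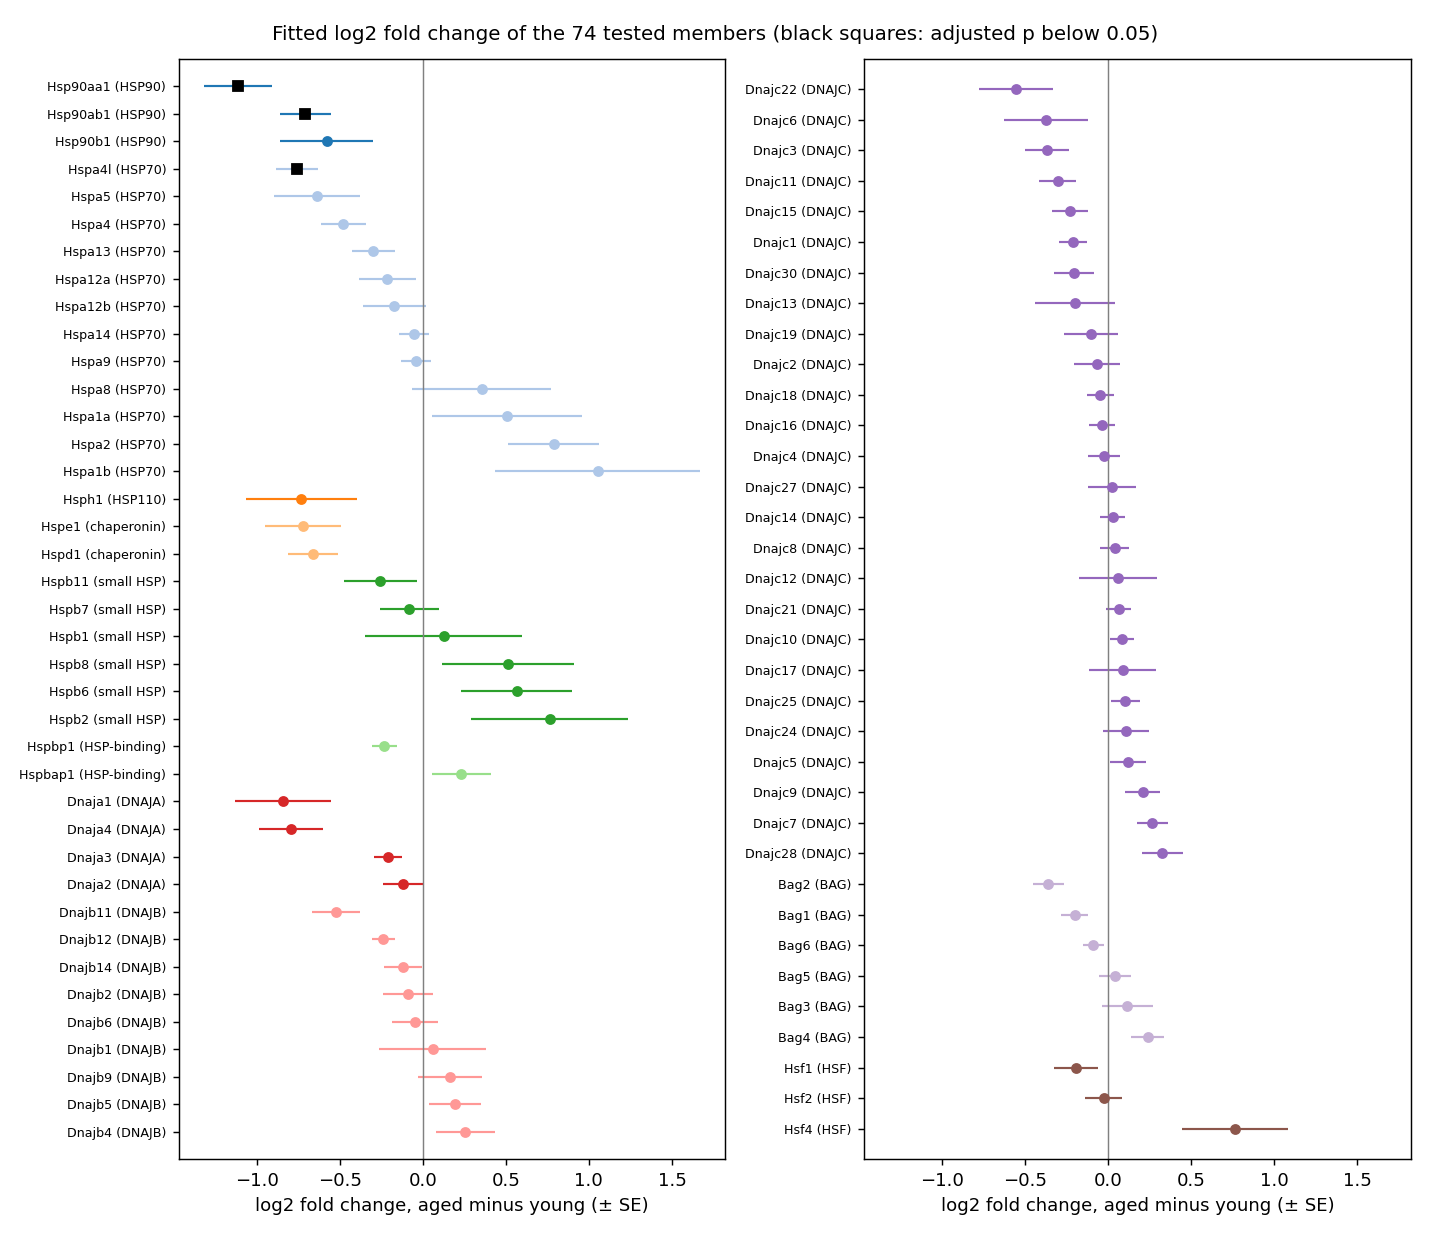
Fitted log2 fold change (aged minus young) of the 74 members tested, in 2 columns by family and by value, with bars of 1 SE. The 3 black squares (Hsp90aa1, Hsp90ab1 and Hspa4l) passed the test, all left of 0, and the HSP90, chaperonin and DNAJA points lie wholly left of 0, while most DNAJC and BAG points lie close to it.

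The most negative log2 fold change of any member was that of Hsp90aa1. Hsp90aa1 (chromosome 12, 111928815 to 111940938, minus strand, NCBIM37, which is mm9) stood at 112, 187, 229.6 and 147 CPM in aged mice 1 to 4 and 366, 319, 359.9 and 417 CPM in young mice 1 to 4. Every aged mouse lay below every young mouse, and the log2 fold change was -1.11 (SE 0.20, adjusted p = 0.0361), so that the aged mean was 46.2% of the young. Hsp90ab1 (chromosome 17, 45704724 to 45710220, minus strand) had 728, 1061, 1168 and 974 CPM in aged mice 1 to 4 and 1554, 1560.4, 1498 and 1808 CPM in young mice 1 to 4. Here too the groups did not overlap, and it fell by 0.71 on the log2 scale (SE 0.15, adjusted p = 0.0483). Over 18 other fits the adjusted p of Hsp90aa1 ran from 2.12e-05 with DESeq2 to 0.123 without young mouse 4, with 12 of 18 past the threshold, and that of Hsp90ab1 from 3.07e-04 to 0.145, with 7 of 18. Both stayed lower in all 18. Other stretches of the genome with 98% or more identity covered 84.0% of the 100-nt windows of the Hsp90aa1 transcript and 3.02% of those of Hsp90ab1. Read pairs with several alignments were left out of the gene counts, so the level of Hsp90aa1 is uncertain.

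Hsp90b1, the HSP90 of the endoplasmic reticulum, gave 294, 888, 658 and 493 CPM in aged mice 1 to 4 and 870.3, 857, 862 and 894 CPM in young mice 1 to 4. Aged mouse 2 lay among the young mice and aged mouse 1 at a level 3.02-fold below it, so the groups overlapped, and the log2 fold change was -0.58 (SE 0.28, adjusted p = 0.229). The 3 HSP90 genes summed to 1135, 2136, 2056 and 1613 CPM in aged mice 1 to 4 and to 2789.9, 2737, 2719.6 and 3119 CPM in young mice 1 to 4. Every aged sum was below every young sum, with 1735 ± 462 CPM against 2841 ± 188 CPM (SD, n = 4). The 2 lowest sums were those of aged mice 1 and 4, the libraries with the largest shares of pairs on no gene. The part of that share, and of the proximal tubule markers, in these values was not tested.

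**Figure D2:**
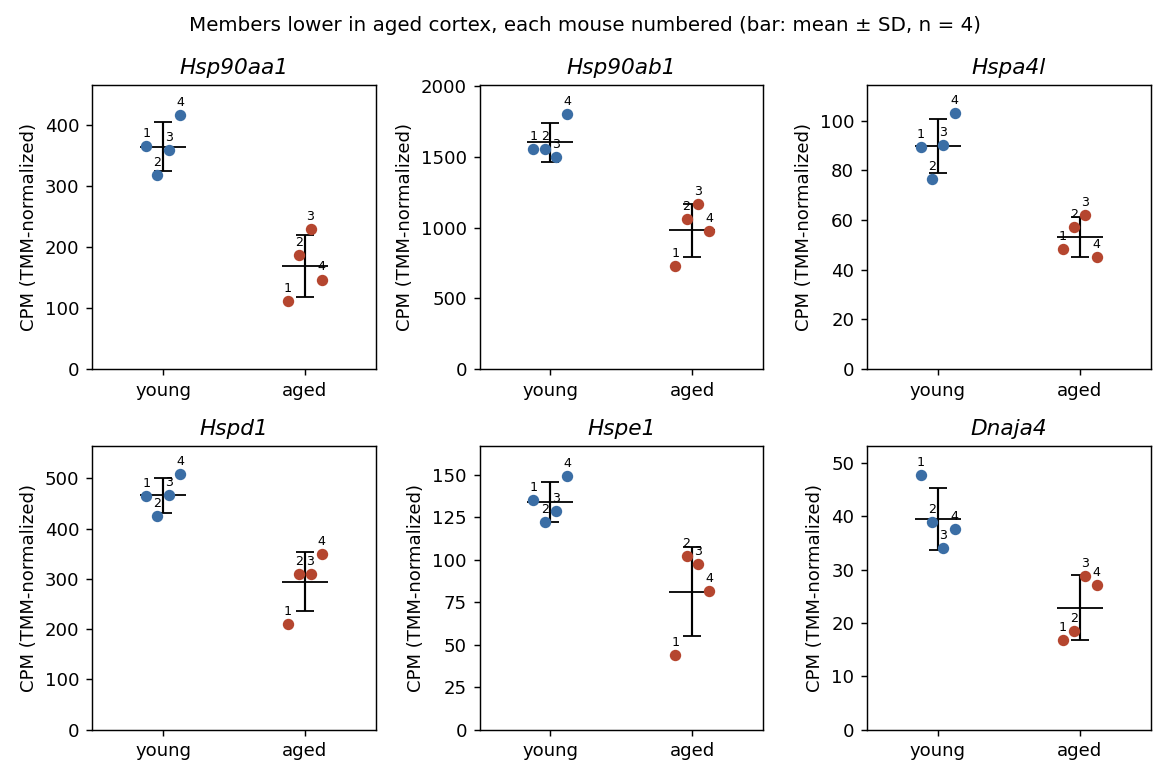
TMM-normalized CPM of Hsp90aa1, Hsp90ab1, Hspa4l, Hspd1, Hspe1 and Dnaja4 in each young (blue) and aged (red) mouse, numbered, with the mean and SD of 4 mice as bars. In all 6 panels the aged points lie below the young points, and aged mouse 1 is the lowest aged point except in Hspa4l, where aged mouse 4 is.

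Hspa4l encodes an HSP110-type nucleotide exchange factor, as do Hspa4 and Hsph1, so the 3 are described together here although Hspa4 and Hspa4l carry HSP70 symbols. Hspa4l (chromosome 3, 40548417 to 40600025, plus strand) stood at 48.2, 57.2, 62.1 and 44.9 CPM in aged mice 1 to 4 and 89.5, 76.6, 90.2 and 103 CPM in young mice 1 to 4. The groups did not overlap, and it fell by 0.76 on the log2 scale (SE 0.13, adjusted p = 0.0294), to 59.1% of the young mean. Its transcript had 0% of windows in a near-identical copy, and its adjusted p over the 18 other fits ran from 2.12e-05 with DESeq2 to 0.103 without young mouse 4, with 12 of 18 past the threshold.

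Hspa4 was not part of the rule for named genes and is given because its values were seen to be like those of Hspa4l, with 146, 183, 238 and 202 CPM in aged mice 1 to 4 and 274, 264, 269 and 264 CPM in young mice 1 to 4. Its groups did not overlap, and its log2 fold change was -0.48 (SE 0.14, adjusted p = 0.0826), and it passed by DESeq2 and by limma-voom. Hsph1 showed another pattern, with 98.6, 60.2, 224 and 110.0 CPM in aged mice 1 to 4 and 202, 215, 176 and 223 CPM in young mice 1 to 4. Aged mouse 3 was level with the highest young mouse and the other aged mice were below all young mice, which gave a log2 fold change of -0.73 (SE 0.33, adjusted p = 0.209). Without aged mouse 3 the log2 fold change of Hsph1 was -1.19 (adjusted p = 0.0475).

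The inducible HSP70 genes varied far more among aged mice than among young mice. Hspa1b, one of the paired heat-inducible HSP70 genes, had 75.5, 8.46, 51.5 and 13.3 CPM in aged mice 1 to 4 and 17.9, 11.4, 18.2 and 24.4 CPM in young mice 1 to 4. Aged mice 1 and 3 were above every young mouse, aged mouse 2 was below every young mouse, and the levels of the aged mice spanned 8.93-fold against 2.14-fold in young mice. Hspa1a, its near-identical neighbour, stood at 27.8, 6.11, 29.9 and 9.64 CPM in aged mice 1 to 4 and 11.2, 11.6, 14.8 and 14.3 CPM in young mice 1 to 4, with aged mice 1 and 3 again above and aged mice 2 and 4 below all young mice. Their log2 fold changes were 1.05 (SE 0.62, adjusted p = 0.304) and 0.51 (SE 0.45, adjusted p = 0.499). Near-identical copies covered 77.7% and 73.1% of their windows, so their counts are uncertain.

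Hspa8, the constitutive HSP70 of the cytosol, was also spread, at 158, 92.1, 464 and 262 CPM in aged mice 1 to 4 and 167, 168, 183 and 244 CPM in young mice 1 to 4. Aged mouse 3 was the highest and aged mouse 2 the lowest of the 8 mice, and the log2 fold change was 0.36 (SE 0.42, adjusted p = 0.613), with 50% of its windows in near-identical copies. Without aged mouse 3 its sign turned, to -0.16. Dnajb1, the heat-inducible J-protein that works with cytosolic HSP70, had 31.8, 25.6, 74.8 and 35.2 CPM in aged mice 1 to 4 and 29.8, 36.2, 44.2 and 50.4 CPM in young mice 1 to 4. Aged mouse 3 was again the highest and aged mouse 2 the lowest, and the log2 fold change was 0.061 (SE 0.32, adjusted p = 0.918). Hspb1, the small heat shock protein that binds actin, stood at 18.1, 5.14, 8.66 and 3.21 CPM in aged mice 1 to 4 and 10.5, 5.34, 7.89 and 8.62 CPM in young mice 1 to 4, with aged mouse 1 the highest and aged mouse 4 the lowest of all, and near-identical copies covered 72.4% of its windows.

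Immediate early genes, which respond within minutes to many stimuli, were examined beside them. Fos had 3.63, 1.30, 0.748 and 1.25 CPM in aged mice 1 to 4 and 2.65, 0.846, 8.64 and 0.709 CPM in young mice 1 to 4, highest in young mouse 3. Of the 13 genes of the list 7 (Dusp1, Ier2, Jun, Junb, Klf6, Myc and Zfp36) were highest of all 8 mice in aged mouse 1, the mouse highest in Hspa1b and Hspb1. Hspa1a, Hspa8 and Dnajb1 were instead highest in aged mouse 3. Another 4 genes of the list (Egr1, Egr2, Fos and Fosb) were highest in young mouse 3. The list's median deviation from the young mean was 0.75, -0.24, -0.33 and 0.10 (log2) in aged mice 1 to 4. Among the 12 immediate early genes tested 1, Myc, passed the test as higher in aged mice (log2 fold change 1.49, SE 0.28, adjusted p = 0.0385) and 0 as lower. The part of such genes in the spread was not tested. Hspa2, an HSP70 best known from the testis, had the second most positive value of the HSP70 genes. It stood at 9.18, 3.77, 7.43 and 6.16 CPM in aged mice 1 to 4 and 3.21, 3.28, 4.08 and 4.84 CPM in young mice 1 to 4, with aged mice 1, 3 and 4 above every young mouse and aged mouse 2 among them, and its log2 fold change was 0.79 (SE 0.27, adjusted p = 0.123).

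**Figure D3:**
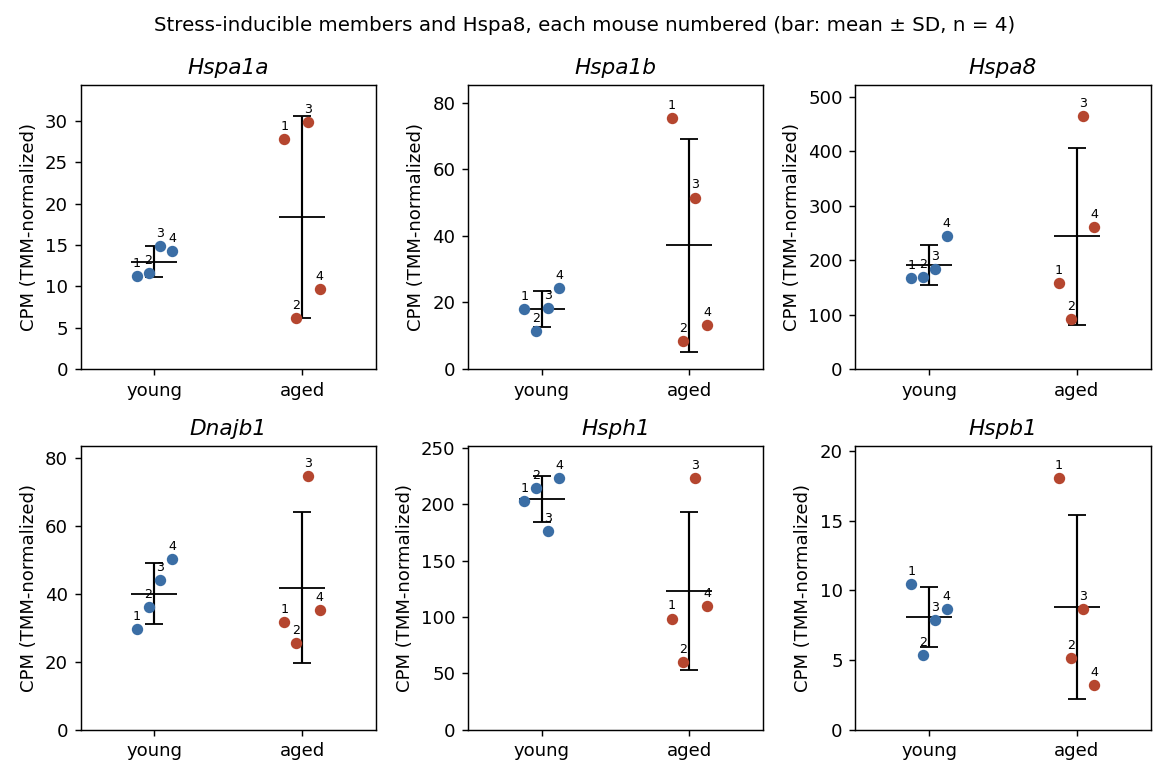
TMM-normalized CPM of Hspa1a, Hspa1b, Hspa8, Dnajb1, Hsph1 and Hspb1 in each young (blue) and aged (red) mouse, numbered, with the mean and SD of 4 mice as bars. The aged points straddle the young points in all 6 panels except Hsph1, where 3 of the 4 aged points lie below them, and aged mouse 2 is the lowest aged mouse in every panel but that of Hspb1.

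Chaperones of the endoplasmic reticulum, where secreted and membrane proteins fold, mostly had negative log2 fold changes, and none passed the test in edgeR. Hspa5, the HSP70 of this compartment (BiP), had 252, 441, 664 and 399.8 CPM in aged mice 1 to 4 and 726, 811, 592 and 607 CPM in young mice 1 to 4. Aged mouse 3 lay among the young mice, so the groups overlapped, and the log2 fold change was -0.64 (SE 0.26, adjusted p = 0.167). Dnajb11 and Dnajc3, J-proteins that serve Hspa5 and were named after their values were seen, did not overlap between the groups. Dnajb11 ran from 55.3 to 94.0 CPM in the aged group and from 106 to 117 CPM in the young, with a log2 fold change of -0.52 (SE 0.14, adjusted p = 0.0780), and it passed by DESeq2, by limma-voom and without aged mouse 1. Dnajc3 ran from 183 to 290.5 CPM and from 298 to 319.7 CPM, with a log2 fold change of -0.37 (SE 0.13, adjusted p = 0.133). Other J-proteins of this compartment differed less. Dnajc1 had a log2 fold change of -0.21 (SE 0.083, adjusted p = 0.156), with no overlap. Dnajc10 had one of 0.084 (SE 0.071, adjusted p = 0.469), and its groups overlapped. Dnajb9, another J-protein of the endoplasmic reticulum and a target of its stress response, stood at 57.7 ± 17.4 CPM in the aged and 51.5 ± 3.97 CPM in the young group (SD, n = 4 each) with a log2 fold change of 0.16 (SE 0.19, adjusted p = 0.611).

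The bases upstream of 3 of these genes held a motif in common. The endoplasmic reticulum stress element is the site through which ATF6 and related factors act, and it was searched as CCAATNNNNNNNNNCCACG on both strands in the 250 bases before each start site of the RefSeq promoter table (GRCm38.p6), which listed 67 of the 84 members. Hspa5, Hsp90b1 and Dnajc3 held it, 3 of the 67, as did 0.13% of the 27025 genes in the table. The stretches are shown because these 3 members share it, placed in NCBIM37 by exact match, written 5′ to 3′ along the gene, with the element in capitals.
Hspa5, chr2:34627540-34627569, plus strand: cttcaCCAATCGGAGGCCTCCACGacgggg
Hsp90b1, chr10:86168377-86168406, minus strand: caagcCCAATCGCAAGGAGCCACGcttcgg
Hsp90b1, chr10:86168272-86168301, minus strand: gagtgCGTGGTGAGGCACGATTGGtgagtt
Dnajc3, chr14:119337044-119337073, plus strand: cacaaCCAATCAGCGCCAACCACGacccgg
The site of Hspa5 lay inside an annotated exon of Hspa5, and those of Hsp90b1 and Dnajc3 in no annotated exon. The second stretch of Hsp90b1 holds the element on the other strand. Hyou1, the HSP110-type exchange factor of the endoplasmic reticulum outside the rule, had 171 ± 49.3 CPM in the aged and 286 ± 11.5 CPM in the young group (SD, n = 4 each), with a log2 fold change of -0.75 (SE 0.20, adjusted p = 0.0722). It belonged to a list of 25 other chaperones and stress genes of this compartment, of which 0 passed the test, 9 were lower and 1 higher at an unadjusted p below 0.05, and 20 had a negative log2 fold change (median -0.34). Of all genes 12.1% were lower and 13.4% higher at that p, and 45.9% had a negative log2 fold change. The genes of the list with positive values were Trib3 (1.13), Ddit3 (0.66), Eif2ak3 (0.25, the 1 higher at that p), Atf4 (0.17) and Herpud1 (0.16).

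In both genes of the mitochondrial chaperonin each aged mouse was below each young mouse, which was not so for the HSP70 of the same compartment. Hspd1 (chromosome 1, 55134679 to 55145087, minus strand), which forms the folding ring, had 210.4, 309, 309.7 and 349 CPM in aged mice 1 to 4 and 464, 425, 467 and 508 CPM in young mice 1 to 4. Hspe1 (chromosome 1, 55144976 to 55148151, plus strand), its lid, had 44.0, 102, 97.7 and 81.6 CPM in aged mice 1 to 4 and 135, 122, 129 and 149.6 CPM in young mice 1 to 4. In both aged mouse 1 was the lowest. Their log2 fold changes of -0.66 (SE 0.15, adjusted p = 0.0525) and -0.72 (SE 0.23, adjusted p = 0.103) did not pass the test, but both passed by DESeq2, by limma-voom and without aged mouse 1. Near-identical copies covered 91.9% of the windows of Hspd1 and 12.6% of those of Hspe1.

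Hspd1 and Hspe1 are transcribed in opposite directions from a shared stretch, which held a heat shock element, the site bound by HSF1. It was searched as GAANNTTCNNGAA and TTCNNGAANNTTC. Of the 67 members listed 3 held it (Dnajb6, Hspd1 and Hspe1, the last 2 through the same site), as did 0.514% of the genes in the table. The 2 sites are shown because they are the only ones found among the members by these letters, with the element in capitals, and in the first both forms overlap.
Hspe1, chr1:55144897-55144926, plus strand: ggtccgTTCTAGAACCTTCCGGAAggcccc
Dnajb6, chr5:30062384-30062413, plus strand: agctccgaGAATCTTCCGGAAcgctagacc
The first lay inside an annotated exon of Hspd1, and the second inside an annotated exon of Dnajb6. Hsp90aa1 and Hsp90ab1 were not listed in the promoter table.

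Hspa9, which imports and folds proteins in the mitochondrial matrix, stood at 721, 787, 807 and 852 CPM in aged mice 1 to 4 and 799, 797, 807 and 847 CPM in young mice 1 to 4. Aged mice 1 and 2 lay below and aged mouse 4 above all young mice, and the log2 fold change was -0.038 (SE 0.09, adjusted p = 0.813). Of 10 other mitochondrial chaperones and proteases 0 passed the test, 8 had a negative log2 fold change and the median was -0.12. At an unadjusted p below 0.05, 3 were lower (Trap1, Afg3l2 and Spg7) and 2 higher (Clpx and Htra2). Of all genes 12.1% were lower and 13.4% higher at that p, and 45.9% had a negative log2 fold change. Dnajb6, a cytosolic J-protein that keeps polyglutamine proteins soluble, was at 25.5 ± 5.11 CPM in the aged and 26.3 ± 1.45 CPM in the young group (SD, n = 4 each), with a log2 fold change of -0.046 (SE 0.14, adjusted p = 0.853) and 84.4% of its windows in near-identical copies.

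All 4 DNAJA genes had negative log2 fold changes, in each of the 18 other fits of the same libraries too, and 0 passed the test. Dnaja1, a main partner of cytosolic HSP70, stood at 40.4, 33.8, 93.2 and 75.4 CPM in aged mice 1 to 4 and 109, 116, 105 and 106 CPM in young mice 1 to 4. The groups did not overlap, but aged mice 1 and 2 were far below aged mice 3 and 4, and the log2 fold change was -0.84 (SE 0.29, adjusted p = 0.122), which passed by DESeq2. Dnaja4 had 16.8, 18.4, 28.9 and 27.2 CPM in aged mice 1 to 4 and 47.7, 38.9, 34.0 and 37.6 CPM in young mice 1 to 4, with no overlap and a log2 fold change of -0.79 (SE 0.19, adjusted p = 0.0587), and it passed by DESeq2, by limma-voom and without aged mouse 4. Dnaja3, the mitochondrial member, and Dnaja2, another cytosolic one, had log2 fold changes closer to 0, of -0.21 (SE 0.085, adjusted p = 0.162) and -0.12 (SE 0.12, adjusted p = 0.553). Near-identical copies covered 23.0% of the windows of Dnaja1.

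The larger J-protein families showed little difference as a whole. Of 9 DNAJB genes tested 0 passed, 5 were negative, and the range was -0.52 (Dnajb11) to 0.25 (Dnajb4). Of 26 DNAJC genes tested 0 passed and 13 were negative, from -0.55 (Dnajc22) to 0.33 (Dnajc28), with a median of -0.0011. Every aged mouse lay below every young mouse in 2 DNAJB genes (Dnajb11 and Dnajb12) and 3 DNAJC genes (Dnajc1, Dnajc3 and Dnajc22). The reverse held in 0 DNAJB genes and 1 DNAJC gene, Dnajc7. Scaled to library size only, 3 of the DNAJB and 8 of the DNAJC genes were negative. Dnajc7, a co-chaperone that links HSP70 and HSP90 and that is named because its groups did not overlap, had 94.1, 72.4, 88.0 and 81.1 CPM in aged mice 1 to 4 and 72.1, 72.0, 64.0 and 70.8 CPM in young mice 1 to 4, the lowest aged mouse lying just above the highest young mouse and a log2 fold change of 0.27 (SE 0.094, adjusted p = 0.127).

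The genes with Hspb symbols, grouped here by symbol alone as small heat shock proteins, had the most positive family median. It was 0.32 over the 6 tested, Hspb11 among them, of which 0 passed, although with limma-voom it was 0.012. Aged mouse 1 was the highest aged mouse in 4 of them (Hspb1, Hspb2, Hspb6 and Hspb8). Hspb6, a small heat shock protein of muscle, stood at 14.9, 6.57, 4.76 and 6.16 CPM in aged mice 1 to 4 and 5.05, 5.50, 5.37 and 6.02 CPM in young mice 1 to 4. Hspb8, the partner of Bag3, ranged over 3.05 to 10.5 CPM in aged mice and 3.06 to 4.31 CPM in young mice. Aged mouse 1 was far above the others in both, and the next aged mouse of Hspb8 stood at 3.69 CPM, among the young mice. Without aged mouse 1 the family's median was -0.071, and the log2 fold change of Hspb6 moved from 0.56 (SE 0.33, adjusted p = 0.306) to 0.084. Hspb2, also a muscle member, was near the limit of precision, with 2.06, 1.95, 0.909 and 0.872 CPM in aged mice 1 to 4 and 1.54, 0.370, 0.612 and 0.886 CPM in young mice 1 to 4 and a log2 fold change of 0.77 (SE 0.47, adjusted p = 0.328).

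Aged mouse 1 was also the highest in 3 of 3 adipocyte markers (Adipoq, Plin1 and Cidec), whose sum ran from 3.63 to 116 CPM in aged and from 0.544 to 10.6 CPM in young mice, with 0 passing the test. Of the 6 muscle and mesangium markers 2, Myh11 and Cnn1, were highest of all 8 mice in aged mouse 1, at 42.4 and 1.92 CPM against young means of 18.1 and 0.743 CPM, and the other 4 were not. The list's median deviation from the young mean in that mouse was -0.17 (log2), its sum ran from 132 to 236 CPM in aged and from 203 to 234 CPM in young mice, and 0 passed the test. Cryab, itself a small heat shock protein but outside the rule, was at 251, 46.2, 17.1 and 23.5 CPM in aged mice 1 to 4 and 84.1, 19.2, 33.3 and 69.1 CPM in young mice 1 to 4, again highest in aged mouse 1. The part of other cell types in the small heat shock protein values was not tested.

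Among the BAG genes 0 of 6 passed the test and 3 had negative log2 fold changes. Bag3, the inducible BAG protein that sends clients to autophagy, stood at 47.3, 31.2, 50.5 and 34.9 CPM in aged mice 1 to 4 and 36.5, 37.4, 36.2 and 41.2 CPM in young mice 1 to 4, with the groups overlapping and a log2 fold change of 0.12 (SE 0.15, adjusted p = 0.656). Bag2, an inhibitor of the HSP70-bound ubiquitin ligase CHIP, was close among the mice of each group, with aged mice within 9.89 to 10.4 CPM and young mice within 12.5 to 13.8 CPM and a log2 fold change of -0.36 (SE 0.091, adjusted p = 0.0659), and it passed by DESeq2. Bag4 had its groups the other way, within 67.6 to 89.7 CPM in aged and 59.2 to 67.6 CPM in young mice (log2 fold change 0.24, SE 0.10, adjusted p = 0.177). Its groups all but touched, with aged mouse 4 at 67.61 CPM and young mouse 4 at 67.57 CPM. Bag2 and Bag4 were named after their values were seen. Hspbp1, an exchange factor for HSP70, was lower in every aged mouse than in any young mouse (log2 fold change -0.23, SE 0.074, adjusted p = 0.104), and Hspbap1 was not (log2 fold change 0.23, SE 0.18, adjusted p = 0.428).

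The transcription factors of the response did not pass the test. Hsf1, its main activator, had 21.7, 21.8, 31.8 and 25.8 CPM in aged mice 1 to 4 and 30.4, 29.6, 25.9 and 29.8 CPM in young mice 1 to 4, with aged mouse 3 above and aged mice 1, 2 and 4 below all young mice, and a log2 fold change of -0.19 (SE 0.13, adjusted p = 0.369). Hsf2 was at 19.4 ± 2.74 CPM in the aged and 19.8 ± 0.429 CPM in the young group (SD, n = 4 each), a difference within the spread (log2 fold change -0.025, SE 0.11, adjusted p = 0.903). Hsf4, known for its part in the lens, was the lowest of the 3 tested, at 2.01, 1.82, 1.23 and 1.04 CPM in aged mice 1 to 4 and 0.678, 0.688, 1.29 and 0.945 CPM in young mice 1 to 4, and the groups overlapped (log2 fold change 0.76, SE 0.32, adjusted p = 0.175). Of all genes 12.1% were lower and 13.4% higher at an unadjusted p below 0.05, and 45.9% had a negative log2 fold change. Of 13 other known HSF1 target genes 0 passed the test, and 6 were lower and 0 higher at that p. In this list 12 had negative log2 fold changes and the median was -0.28. Serpinh1, the collagen chaperone of that list, had 31.1, 73.96, 105 and 53.7 CPM in aged mice 1 to 4 and 121, 109, 111 and 125 CPM in young mice 1 to 4, with every aged mouse below every young mouse and a log2 fold change of -0.82 (SE 0.30, adjusted p = 0.140). The fibroblast collagens Col1a1 (log2 fold change -1.20, SE 0.32, adjusted p = 0.0729) and Col3a1 (log2 fold change -1.24, SE 0.29, adjusted p = 0.0559) also had every aged mouse below every young mouse, and the third marker of that list, Dcn, did not (log2 fold change 0.62, SE 0.36, adjusted p = 0.305). The summed list ran from 76.0 to 125 CPM in aged and from 104 to 150.2 CPM in young mice, and its part in Serpinh1 was not tested.

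Partners of HSP90 and HSP70 outside the rule were counted from lists chosen with earlier results of these data known. Of 18 cofactors 0 passed the test, 5 were lower and 0 higher at an unadjusted p below 0.05, 14 had negative log2 fold changes and the median was -0.21. Fkbp5, an HSP90 co-chaperone induced by glucocorticoids, was highest in aged mouse 1, at 391, 73.0, 138 and 129.6 CPM in aged mice 1 to 4 and 255, 245, 177 and 198 CPM in young mice 1 to 4, and had a log2 fold change of -0.26 (SE 0.44, adjusted p = 0.734). Of the 14 genes of the cytosolic chaperonin TRiC and its helper prefoldin 0 passed, 6 were lower and 1 higher at an unadjusted p below 0.05, and 13 had negative log2 fold changes, with a median of -0.22. The median over all genes was 0.029, and 45.9% of all genes were negative. At an unadjusted p below 0.05, 12.1% of all genes were lower and 13.4% higher. The list of HSF1 targets shares genes with the cofactor and TRiC lists, so these counts are not independent of each other.

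Per kilobase of annotated exon the most abundant members in young mice were Hsp90ab1 at 535 ± 46.1 FPKM (SD, n = 4), Hsp90b1 at 216 ± 4.10 FPKM and Hspa9 at 207 ± 5.99 FPKM. In aged mice Hsp90ab1 stood at 328 ± 62.5 FPKM, Hspa9 at 201 ± 13.9 FPKM and Hsp90b1 at 145 ± 62.4 FPKM. The TMM-normalized values of the 84 members summed to 7279 ± 1139 CPM in aged and 9343 ± 303 CPM in young mice (SD, n = 4). The sums were 5741, 7490.1, 8491 and 7393 CPM in aged mice 1 to 4 and 9259, 9363, 9011 and 9740.1 CPM in young mice 1 to 4, so every aged sum was below every young sum on this scale. Scaled by library size alone, an alternative added after seeing the data, the aged mice had sums of 6147, 7769, 9033 and 7257 CPM. The young sums without TMM were 8989.8, 8932, 8744 and 9289 CPM, and there aged mouse 3 lay among the young mice.

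The members were more variable among aged than among young mice, as were most genes. The SD of log2 CPM was wider in the aged group in 64 of the 74 members (86.5%) and in 83.4% of all genes tested, and its median was 0.26 in aged and 0.094 in young mice for the members, beside 0.25 and 0.12 for all genes. The widest were Hspa1b (SD 1.51 in aged, 0.45 in young mice), Hspa1a (1.13 and 0.20), Hspb1 (1.05 and 0.40) and Hspa8 (1.00 and 0.26). By mouse, the median deviation of the 74 members from their young means was -0.23, -0.077, -0.043 and -0.12 (log2) in aged mice 1 to 4, all below the same median over all genes, which lay between 0.00044 and 0.014. For the chaperonin pair it was -1.37, -0.49, -0.52 and -0.56.

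**Figure D4:**
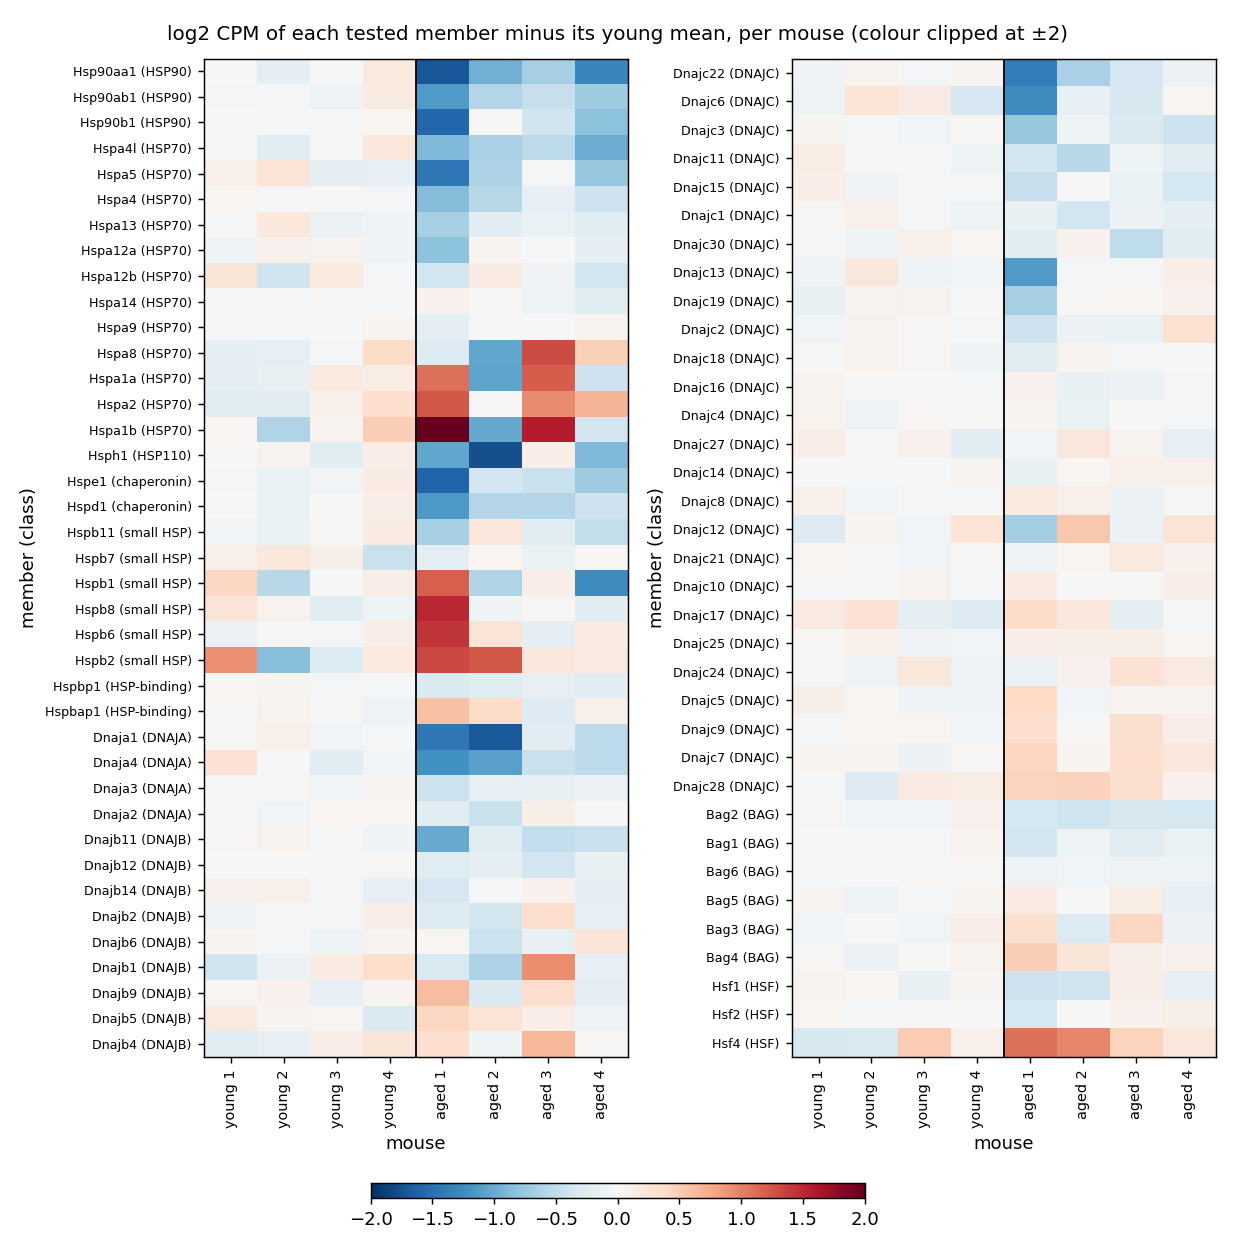
Each row is 1 of the 74 members tested and each column 1 mouse, and the colour is log2 CPM minus the mean of the 4 young mice (blue lower, red higher, clipped at 2). The Hsp90aa1, Hsp90ab1, chaperonin, Dnaja1 and Dnaja4 rows are blue in all 4 aged mice, Hspa1a and Hspa1b are red in aged mice 1 and 3 and blue in aged mice 2 and 4, and the rows of Hspb1, Hspb6 and Hspb8 are reddest in aged mouse 1.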

How the data were processed

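RNA from the renal cortex of 4 aged and 4 young mice was sequenced. Per the labels and the paper's methods, the authors aligned paired reads to mm9 with TopHat2 and used HTSeq with strand to count pairs per RefSeq gene, and the submitters' processing notes also name CASAVA 1.8.2 and SAMtools (other versions are not given in the sources used here). The authors deposited raw counts per gene, which were used as they stand, and pairs aligned to several places (34.3% to 39.1% of each library's tally) or to no gene were left out. A joint table of the same samples, with 8 columns, was not used. Groups came from the labels.

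Counts were analyzed in R 4.3.3 with edgeR 4.0.16 (filterByExpr, minimum count 10, TMM, quasi-likelihood F test, two-sided, all 8 libraries, no covariate). Benjamini-Hochberg adjustment covered the 13944 genes tested, and SE is the log2 fold change divided by the square root of F. Log2 CPM used a prior count of 2. FPKM used exon lengths of the GENCODE annotation of NCBIM37, which matched 83 of 84 members. Near-identical copies were sought with BLAST 2.17.0 (98% identity, 100 nt). In simulated counts of 13840 genes for aged against young mice, edgeR recovered 70.7% of changes of 1 and 85.9% of changes of 1.5 on the log2 scale, and 5.49% of its calls were false. The simulation gave each gene the same dispersion in both groups and had no effect of a mouse on many genes. In the data the median SD of log2 CPM over all genes was 0.25 in aged and 0.12 in young mice, so these rates may not hold there.

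The members and gene lists were chosen with earlier results of these data known. Members were named if they passed the test, belonged to a fixed set of 18 core chaperones, were among the 5 largest or 5 smallest log2 fold changes or the 3 highest FPKM in young mice, and any other member named was chosen after its values were seen. Alternatives were RLE, upper-quartile and library-size scaling, DESeq2 1.42.0, limma-voom (limma 3.58.1) with quality weights, robust fitting, 3 other filters, the replicate number as a block and each mouse left out. The counts of members without overlap with aged mouse 1 left out and the summed CPM were chosen after seeing the data.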

Additional observations from a re-analysis of the deposited data

How the results depend on the processing

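With 3 members passing the test at first, all lower, RLE scaling, robust fitting and the filter of 10 counts in 4 libraries kept 3 (the same genes), library size only gave 3 (Hspd1 in place of Hsp90ab1), and upper-quartile scaling and the other 2 filters gave 2. DESeq2 gave 11 (7 with a 1.5-fold change) and limma-voom 8 (6 with it). With one mouse left out the number ran from 0 to 6, and from 0 to 5 with a 1.5-fold change, and the cause was not tested. With the replicate number as a block it was 0, and 132 genes passed in all. The labels do not say whether the numbers pair the mice, and pairing was not tested. The deviations of same-numbered mice correlated at 0.21, 0.038, 0.20 and -0.03. Aged mice 1, 2 and 3 correlated best with the young mouse of their own number and aged mouse 4 with young mouse 2. The margin was small for aged mouse 2 (0.038 against 0.029 with young mouse 1). It was also small for aged mouse 3 (0.199 against 0.165 with young mouse 2). These values do not show whether the mice were paired.

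The members' median turned to 0.047 with library size only. Members with negative values then numbered 32, and with upper-quartile scaling 40, against 44. Of the members under the naming rule, those that had not passed changed sign as follows. With upper-quartile scaling Hspa9 had 0.00049 and Hsf2 0.013, and with library size only they had 0.070 and 0.082. With limma-voom Hspb1 had -0.43 and Hsf2 0.035, and with the block Hspb1 had -0.096 and Dnajb1 -0.039. With one mouse left out the log2 fold change ran from -0.16 to 0.63 in Hspa8, -0.076 to 0.0048 in Hspa9, -0.50 to 0.40 in Hspb1, -0.38 to 0.24 in Dnajb1, -0.026 to 0.29 in Dnajb9, -0.0019 to 0.23 in Bag3 and -0.078 to 0.071 in Hsf2. Depth limits Hspb2 and Hsf4, at about 1 CPM, and multiply aligned pairs limit the levels of Hspd1, Dnajb6, Hsp90aa1, Hspa1a, Hspa1b, Hspb1 and Hspa8.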

Other observations

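Among lists of marker genes of other cell types, 1 gene passed the test as lower in aged mice, Csf1r, the receptor of the macrophage growth factor (log2 fold change -1.004, SE 0.22, adjusted p = 0.0472), and 1 as higher, Igj, the joining chain of plasma cells (log2 fold change 2.65, SE 0.45, adjusted p = 0.0311). Of the 5 macrophage markers tested, Csf1r was the only 1 with a negative log2 fold change, and the list's median was 0.48. No member of the thick limb, distal convoluted tubule, collecting duct, intercalated cell, podocyte, endothelium, fibroblast, T cell or red blood cell lists passed, and Hba-a1 and Hbb-b1 are listed at 0 in all libraries. Each member under the naming rule gave 1 group of 4 aged and 1 of 4 young mice, 48 groups in all. In each, the CPM was examined for a mouse far from the others (Dixon's test at the 95% level). Such a mouse was found in 0 groups, where chance gives 2.4. The groups share the same 8 mice, so they are not independent. With 4 mice only a wide gap can be found. Hspb6 was not called in aged mice, at 14.9 CPM in aged mouse 1 and 4.76 to 6.57 CPM in the others. The test therefore does not show that no mouse stood apart.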
